A study of Mus musculus with 2 samples.

Results

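The genes described here are 41 genes of mitotic entry, the spindle and the kinetochore, chosen by symbol and found in the RNA profiles of 2 libraries of mouse fallopian tube epithelial organoids. The files list 25668 gene symbols in each library, and all 41 members are among them. The organoids are cultures of the epithelium that lines the oviduct, and those of the control came from a mouse of the B6J.129(B6N) line Fezh/J with the allele Gt(ROSA)26Sortm1(CAG-cas9*,-EGFP), in which the CAG promoter drives Cas9 and EGFP. The control library carries the genotype label WT, and the other library carries the label Trp53 KO, loss of the tumour suppressor gene that encodes p53. Both libraries carry the treatment label Conditioned medium, so it was not compared. Neither the age of the mouse, nor the passage of the cultures, nor whether the knockout culture came from the same mouse or was 1 clone is given in the sources used here. Values are TPM, reads per gene length brought to a common total. Levels can be compared between genes, and between libraries only as shares of that total. Other scalings moved the counts, as given at the end. With 1 library in each group there is no replicate check, no test between genotypes and no SD, and every difference compares these 2 libraries.

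Mitosis starts when cyclin B and Cdk1 form an active kinase, which the phosphatases of the Cdc25 family switch on. Kinetochores, protein layers built on the centromere, then attach chromosomes to the spindle, and the spindle assembly checkpoint holds back the anaphase-promoting complex until every chromosome is attached. The complex then marks cyclin B and securin for destruction, the chromosomes part, and the central spindle directs cytokinesis. Most of these genes are transcribed in the G2 and M phases of dividing cells. The p53 protein is known to lower them indirectly: its target p21, encoded by Cdkn1a, inhibits cyclin-dependent kinases and so keeps the repressor complex DREAM on promoters with a CHR element (cell cycle genes homology region), while B-Myb (Mybl2) and FoxM1 activate the same genes in dividing cells.

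The labels were checked on Trp53 itself, which stood at 83.2 TPM in control and 2.42 TPM in knockout organoids. Cdkn1a was 203 TPM in control and 38.1 TPM in knockout organoids, or 0.188 times as much (interval 0.179 to 0.197). A gene counts as measured at a mean of at least 1 TPM over both libraries and as higher or lower where log2(TPM + 1) in the knockout library minus that in the control library is at least 1 in size, a 2-fold difference on this scale, which understates the change of low genes. Over all 11228 genes measured the median difference was −0.17. The estimated library sizes were 100099572 reads for the control and 27688375 reads for the knockout, and whole read numbers could be recovered for every member, from 539 to 16915 for the control and from 618 to 11403 for the knockout. Each TPM ratio has an exact Clopper-Pearson interval at 95%, computed from the recovered reads, which covers counting error only, not differences between cultures.

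Mitotic genes were higher in the knockout library almost throughout. Of the 41 members, 40 had a difference above 0, against 39.9% of all genes measured. At least 2-fold higher were 17 members (41.5%), against 8.35% of all genes, and 0 were at least 2-fold lower, against 15.3% of all genes. The median difference of the members was 0.92, which is 1.09 above the median of all genes. Their summed level was 1269 TPM in control and 2644 TPM in knockout organoids, 0.127% and 0.264% of all TPM. In whole cultures, a larger share of dividing cells and more RNA of these genes per dividing cell cannot be told apart.

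**Figure D1:**
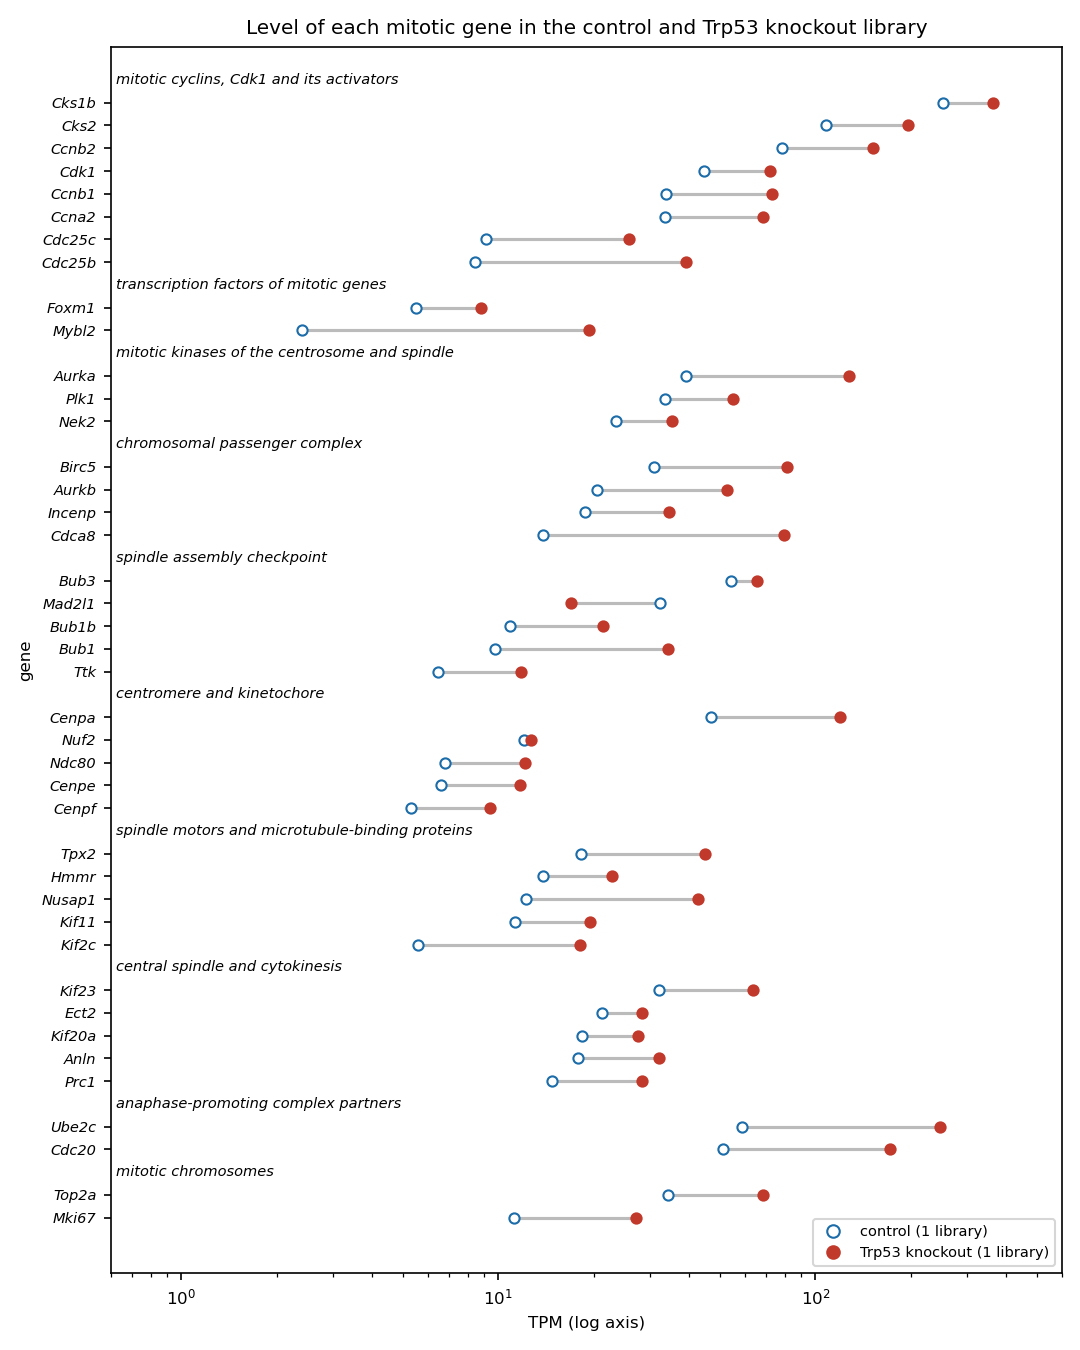
TPM of each of the 41 mitotic genes on a log axis, by functional group; open points are the control library and filled points the Trp53 knockout library, 1 library each. The filled point lies to the right for 40 genes and to the left for Mad2l1 alone, at 32.3 and 16.9 TPM.

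The sizes of the differences ran from a ratio of 8.04 for Mybl2 to 0.524 for Mad2l1. The counting interval lay wholly above a 2-fold ratio for 16 members. It included 2 for 7 others, of which Ccna2 was counted as at least 2-fold higher and Top2a, Kif23, Ccnb2, Bub1b, Prc1 and Ttk were not, so counting error alone does not place these 7 on either side of the threshold. For 40 members the interval excluded a ratio of 1, and the exception was Nuf2. The order of levels was largely kept between the libraries, with a Spearman correlation of 0.863 across the 41 genes, which are not independent and share both libraries. Cks1b was the most abundant member in each library, and the lowest was Mybl2 for the control and Foxm1 for the knockout.

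**Figure D2:**
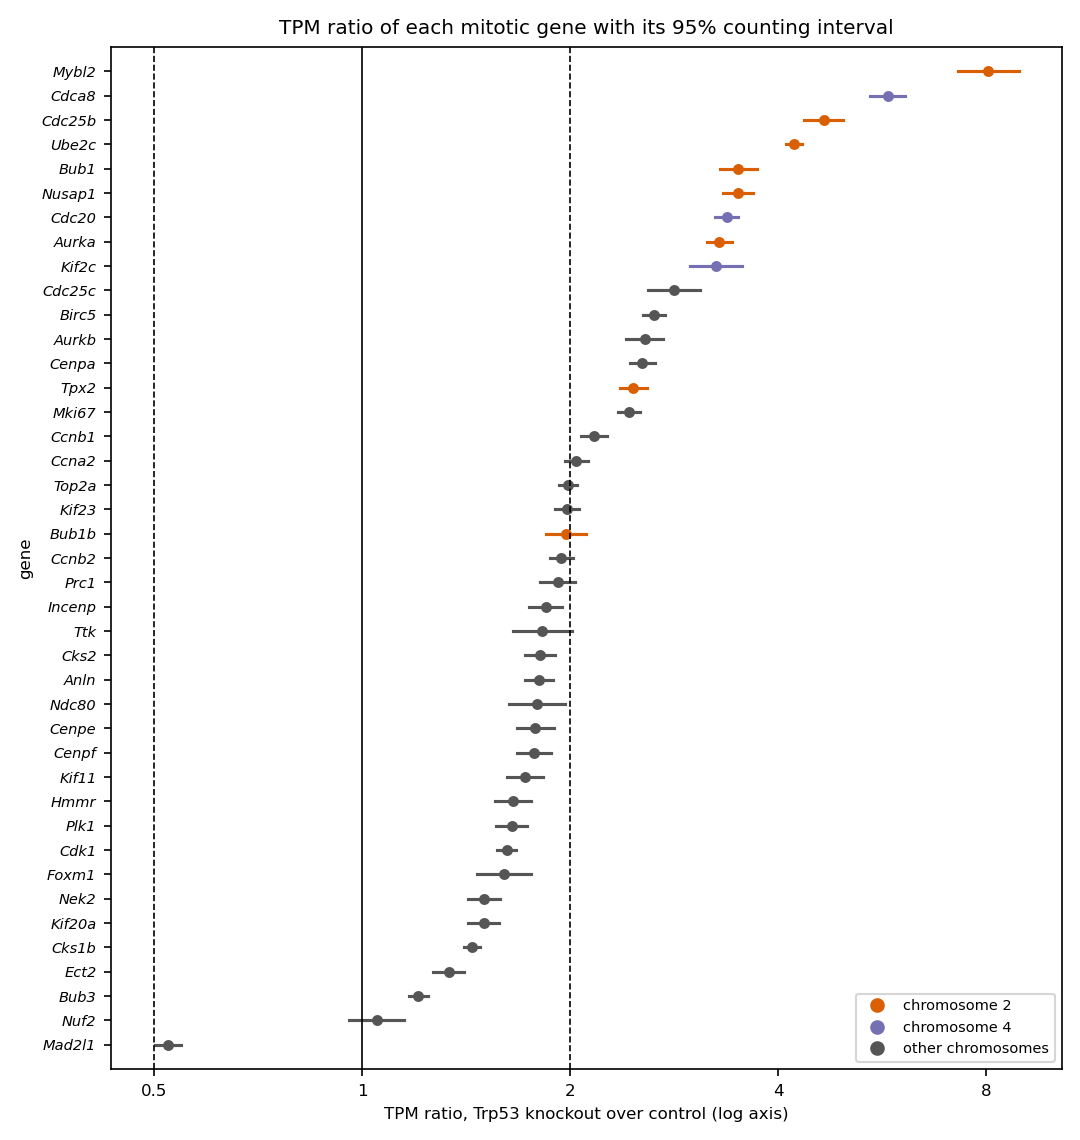
TPM ratio of the Trp53 knockout over the control library for each of the 41 genes on a log axis, with bars for the 95% counting interval, coloured by chromosome; the solid line is a ratio of 1 and the dashed lines are 0.5 and 2. The 9 highest ratios all belong to genes on chromosomes 2 and 4, and the interval of Nuf2 alone includes 1.

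Chromosomes 2 and 4 hold 11 of the 41 members, and their genes stood apart from the rest of the genome in this pair of libraries. The median difference was 0.63 over 681 genes measured on chromosome 4 and 0.20 over 899 genes on chromosome 2, while the other 17 numbered chromosomes had medians from −0.35 to −0.14 and the X chromosome −0.36. On chromosomes 2 and 4 together 10 of the 11 members were at least 2-fold higher, against 19.2% of all genes there. The members on chromosome 2 are Mybl2, Cdc25b, Ube2c, Nusap1, Bub1, Aurka, Tpx2 and Bub1b, and those on chromosome 4 are Cdca8, Cdc20 and Kif2c. Their median difference was 1.72, and the lowest, Bub1b, was 0.92.

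Without chromosomes 2 and 4, 7 of 30 members (23.3%) were at least 2-fold higher, against 6.56% of all genes elsewhere, and 0 were lower, against 16.4%. The 7 were Cdc25c, Birc5, Cenpa, Aurkb, Mki67, Ccnb1 and Ccna2. The median of the 30 was 0.76, and 29 of them were above 0. When the median of all genes on the same chromosome was subtracted from each member, a step added after the data were seen, 40 of 41 stayed above 0 and 24 were past 2-fold, against 8.96% of all genes after the same subtraction. Kif2c was no longer past 2-fold on this scale, at 0.91. On this scale Mybl2 was 2.38, Cdc25b 1.89, Ube2c 1.86 and Cdca8 1.82, still the 4 largest, followed by Cdc25c of chromosome 18 at 1.66. How far the higher level of both chromosomes enters the value of a single member was not tested.

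**Figure D3:**
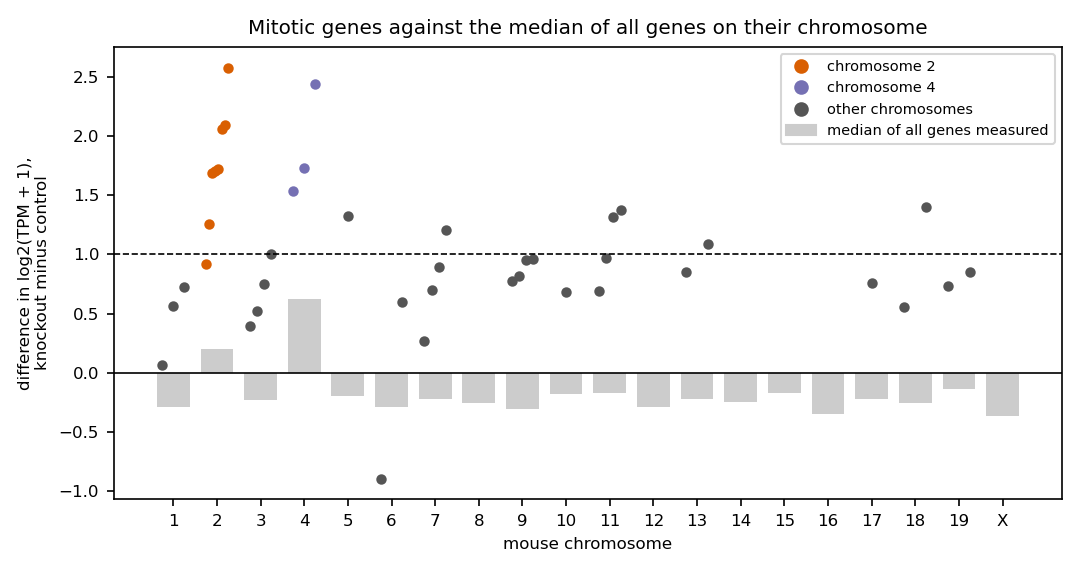
Difference in log2(TPM + 1), knockout minus control, of each mitotic gene (points) by mouse chromosome, with bars for the median of all genes measured on that chromosome; the dashed line is a 2-fold difference. The bars are above 0 on chromosomes 2 and 4 alone, at 0.20 and 0.63, and every point but Mad2l1 on chromosome 6 lies above the bar of its chromosome.

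Most members hold promoter words that the choice by name did not use. RefSeq promoter windows of GRCm38.p6, from 250 bases before to 50 bases after the annotated start, were at hand for 34 of the 41 members, in 37 windows, and Ccna2, Cdc25c, Foxm1, Aurkb, Incenp, Tpx2 and Kif20a were not among them. The words searched on both strands were CCAAT, the box bound by NF-Y, and TTTGAA and TTTAAA, the usual forms of the CHR element. A match is a description of the letters and no proof of binding, and words that overlap on opposite strands were each counted. At least 2 CCAAT words were present in 21 of 37 member windows (56.8%), against 11.7% of all 32851 windows. TTTGAA was present in 26 member windows (70.3%), against 17.9% of all windows, and TTTAAA in 9 (24.3%), against 13.2%. A CCAAT word together with either CHR form was found in 25 member windows (67.6%) and in 10.7% of all windows.

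The promoters of 6 members are printed because they carry the ends and the middle of the range of differences: the strongly higher Ube2c, Cdca8 and Cdc20, the core cyclin gene Ccnb2, and Mybl2 and Mad2l1, the highest and the lowest member. Each is the 250 bases before the start on the gene's own strand, with the words above in capitals.
Ube2c: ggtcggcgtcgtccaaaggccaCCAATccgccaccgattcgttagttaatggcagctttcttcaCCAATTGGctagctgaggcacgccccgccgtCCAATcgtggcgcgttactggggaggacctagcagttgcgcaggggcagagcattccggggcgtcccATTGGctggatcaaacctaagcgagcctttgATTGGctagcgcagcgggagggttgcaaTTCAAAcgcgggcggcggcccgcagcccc
Cdca8: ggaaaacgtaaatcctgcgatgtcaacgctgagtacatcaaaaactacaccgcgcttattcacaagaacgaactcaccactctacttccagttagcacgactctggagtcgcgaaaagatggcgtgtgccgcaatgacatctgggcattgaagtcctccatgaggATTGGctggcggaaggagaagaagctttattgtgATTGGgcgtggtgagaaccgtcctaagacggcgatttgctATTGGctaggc
Cdc20: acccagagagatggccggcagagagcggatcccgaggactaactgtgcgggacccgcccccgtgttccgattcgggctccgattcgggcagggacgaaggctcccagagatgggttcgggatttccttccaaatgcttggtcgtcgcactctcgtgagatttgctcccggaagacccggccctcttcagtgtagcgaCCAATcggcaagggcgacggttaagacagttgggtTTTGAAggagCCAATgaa
Ccnb2: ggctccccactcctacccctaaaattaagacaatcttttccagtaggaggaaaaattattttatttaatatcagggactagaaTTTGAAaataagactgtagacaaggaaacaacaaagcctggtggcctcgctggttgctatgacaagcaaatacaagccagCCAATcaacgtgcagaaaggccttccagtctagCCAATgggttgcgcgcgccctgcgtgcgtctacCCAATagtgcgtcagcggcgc
Mybl2: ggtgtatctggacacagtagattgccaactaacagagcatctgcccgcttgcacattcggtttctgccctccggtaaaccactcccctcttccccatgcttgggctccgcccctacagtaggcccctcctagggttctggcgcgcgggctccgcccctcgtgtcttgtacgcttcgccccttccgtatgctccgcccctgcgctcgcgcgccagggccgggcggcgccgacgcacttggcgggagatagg
Mad2l1: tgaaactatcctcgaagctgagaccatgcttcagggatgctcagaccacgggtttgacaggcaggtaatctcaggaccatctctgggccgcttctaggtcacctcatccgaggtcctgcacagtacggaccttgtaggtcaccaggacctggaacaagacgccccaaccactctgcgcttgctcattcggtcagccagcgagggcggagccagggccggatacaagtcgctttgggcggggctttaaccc
The windows lie at chr2:164769679-164769928 (plus strand) for Ube2c, chr4:124936918-124937167 (minus strand) for Cdca8, chr4:118437344-118437593 (minus strand) for Cdc20, chr9:70421555-70421804 (minus strand) for Ccnb2, chr2:163054385-163054634 (plus strand) for Mybl2 and chr6:66534971-66535220 (plus strand) for Mad2l1 in GRCm38.p6. In Ccnb2 the CCAAT words begin at −87, −54 and −21 from the start, 33 bases apart, and TTTGAA begins at −167 and again at 5, the latter just past the printed stretch. Ube2c has 6 CCAAT words, of which the pair at −186 and −183 overlaps on opposite strands, and a TTTGAA on the opposite strand at −29. Cdc20 has TTTGAA at −18 between CCAAT words at −53 and −8, and Cdca8 has CCAAT on the opposite strand at −85, −51 and −11, with TTTGAA at 14 and a further CCAAT at 19, both past the printed stretch. Mybl2 and Mad2l1 hold none of the words anywhere in the window, and neither do Nusap1 and Nuf2.

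The 30 members with any of the words had a median difference of 0.91, from 0.26 to 2.44. The 4 with none had a median of 0.89, from −0.89 to 2.58, so they held both the highest and the lowest member. Members with at least 2 CCAAT words, 19 in number, had a median of 0.95, and the other 15 had 0.89. The split by the CHR forms gave the wider gap: the 26 members with TTTGAA or TTTAAA had a median of 0.91, and the 8 with neither had 1.28. Those 8 were Bub1, Cdc25b, Cks2, Mad2l1, Mybl2, Nek2, Nuf2 and Nusap1, and 4 of them, Mybl2, Cdc25b, Nusap1 and Bub1, lie on chromosome 2.

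**Figure D4:**
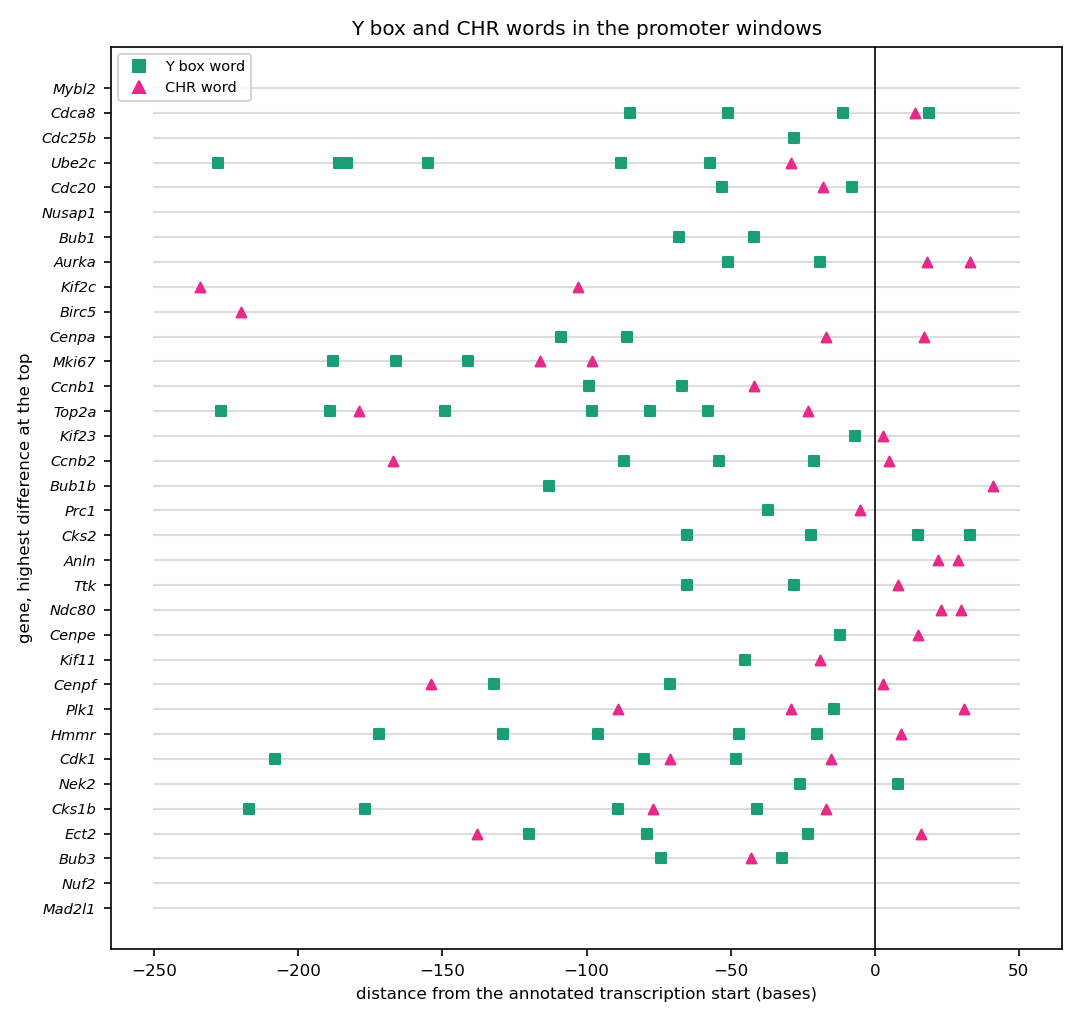
Position of the CCAAT box (Y box, squares) and of the CHR words (triangles) in the promoter window of 34 mitotic genes, in bases from the annotated start, ordered by difference with the highest at the top; for genes with more than 1 window the window with the lowest coordinate is drawn. Most words lie in the last 100 bases before the start or just after it, and the rows of Mybl2, Nusap1, Nuf2 and Mad2l1 are empty.

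The cyclins, Cdk1 and its activators had 8 members, all above 0. At least 2-fold higher were 4 of them (50%), against 8.35% of all genes. Ccnb1, cyclin B1, was 33.8 TPM in control and 73.2 TPM in knockout organoids, a ratio of 2.16 with an interval of 2.07 to 2.26. Its relative Ccnb2 was 78.5 and 152 TPM, and Ccna2, the cyclin of S phase and early mitosis, 33.6 and 68.6 TPM. Cdk1, the kinase they bind, was 44.6 and 72.1 TPM, a smaller ratio of 1.62, so the level of Ccnb1 relative to Cdk1 was 0.759 in control and 1.02 in knockout organoids. Both Cdc25 phosphatase genes among the members differed more than the kinase. Cdc25b was 8.43 and 39.2 TPM, a ratio of 4.65 with an interval of 4.35 to 4.96. Cdc25c was 9.11 and 25.7 TPM, a ratio of 2.83 with an interval of 2.59 to 3.08. Cdc25a, of the same family but not a member, was 14.7 and 13.3 TPM. Its ratio was 0.906, below the control, with an interval of 0.847 to 0.968. The small Cdk-binding proteins Cks1b and Cks2 were the most abundant of the group, at 252 and 108 TPM in control and 364 and 196 TPM in knockout organoids, neither past 2-fold.

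The 2 transcription factors of mitotic genes lay far apart. Mybl2, B-Myb, was 2.40 TPM in control and 19.3 TPM in knockout organoids, and its ratio of 8.04 had an interval of 7.27 to 8.91. Foxm1 was 5.50 and 8.82 TPM, a ratio of 1.60 with an interval of 1.47 to 1.75. Mybl2 was thus below Foxm1 in the control library and above it in the knockout library.

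Among the 3 mitotic kinases of the centrosome and spindle, Aurka alone was at least 2-fold higher (33.3%, against 8.35% of all genes). Aurora A, which it encodes, matures centrosomes and builds the spindle, and its level was 39.0 TPM in control and 128 TPM in knockout organoids, a ratio of 3.28 with an interval of 3.15 to 3.42. Plk1, the polo-like kinase that acts from entry to cytokinesis, was 33.5 and 55.2 TPM, and Nek2, which parts the centrosomes, 23.5 and 35.2 TPM. Tpx2, which activates Aurora A on the spindle, was 18.2 and 44.9 TPM, a ratio of 2.47.

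The chromosomal passenger complex corrects wrong attachments at the centromere and then moves to the central spindle. Of its 4 members, 3 (75%) were at least 2-fold higher, against 8.35% of all genes. Cdca8, borealin, was 13.8 TPM in control and 79.7 TPM in knockout organoids, a ratio of 5.76 with an interval of 5.43 to 6.11. Birc5, survivin, was 30.9 and 81.7 TPM, and the kinase Aurkb 20.5 and 52.6 TPM, with ratios of 2.64 and 2.56 on chromosome 11. The scaffold Incenp was 18.8 and 34.7 TPM, a ratio of 1.84 with an interval that ended at 1.94. Cdca8, the lowest of the 4 in the control library, was thus near the level of Birc5 in the knockout library, with a Cdca8 to Birc5 level ratio of 0.448 and 0.976.

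The spindle assembly checkpoint was the group with the widest spread, from −0.89 to 1.71. Bub1, a checkpoint kinase of the kinetochore, was 9.77 TPM in control and 34.2 TPM in knockout organoids, a ratio of 3.50 with an interval of 3.29 to 3.72. Bub1b, BubR1 of the mitotic checkpoint complex, was 10.9 and 21.4 TPM, and Ttk, the kinase Mps1 that starts the signal, 6.47 and 11.8 TPM. Bub3, the common binding partner of Bub1 and BubR1, was 54.4 and 65.5 TPM, a ratio of 1.21 with an interval of 1.17 to 1.24. Mad2l1, Mad2, the protein that captures Cdc20, was the only member below the control. It was 32.3 TPM in control and 16.9 TPM in knockout organoids, from 15464 and 2407 reads, and the control to knockout ratio of 1.91 had an interval of 1.83 to 1.99. On the log2(TPM + 1) scale this difference was −0.89, short of the 2-fold threshold. The order of these levels differed between the libraries: Mad2l1 stood at 2.98 times the level of Bub1b in control and 0.791 times in knockout organoids. Against Mad1l1, its partner at the kinetochore and not a member, it stood at 2.11 and 0.885 times.

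Of the 5 centromere and kinetochore genes 1 (20%) was at least 2-fold higher, against 8.35% of all genes. Cenpa, the histone variant that marks centromeres, was 47.0 TPM in control and 119 TPM in knockout organoids, a ratio of 2.54 with an interval of 2.44 to 2.65. Cenpe, a kinetochore motor, was 6.57 and 11.7 TPM, and the large coiled-coil protein gene Cenpf 5.32 and 9.41 TPM. Ndc80 and Nuf2 encode partners of 1 rod-shaped dimer that grips microtubules, and they differed from each other. Ndc80 was 6.79 and 12.1 TPM, a ratio of 1.79, while Nuf2 was 12.0 and 12.6 TPM, a ratio of 1.05 with an interval of 0.958 to 1.15. The level of Ndc80 relative to Nuf2 was 0.564 in control and 0.961 in knockout organoids.

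Of 5 spindle motors and microtubule-binding proteins, 3 (60%) were at least 2-fold higher, against 8.35% of all genes. All 3 lie on chromosomes 2 and 4, and Kif2c of chromosome 4 fell short once the chromosome median was subtracted (0.91). Nusap1, which bundles microtubules near chromosomes, was 12.2 TPM in control and 42.6 TPM in knockout organoids, and Kif2c, MCAK, which takes microtubules apart at the centromere, 5.59 and 18.1 TPM. Their ratios were 3.49 and 3.24. Kif11, the motor Eg5 that pushes the spindle poles apart, was 11.3 and 19.4 TPM, and Hmmr, a spindle assembly factor, 13.8 and 22.8 TPM.

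The genes of the central spindle and cytokinesis had 0 of 5 members at least 2-fold higher, against 8.35% of all genes. All 5 were above 0, where 39.9% of all genes were. Kif23, the motor of the centralspindlin complex, was nearest to the threshold at 32.2 TPM in control and 63.7 TPM in knockout organoids. Prc1, which cross-links the midzone, was 14.8 and 28.3 TPM, and Anln, anillin of the contractile ring, 17.9 and 32.2 TPM. Kif20a, a midzone motor, was 18.4 and 27.6 TPM, and Ect2, which activates RhoA for furrowing, 21.3 and 28.4 TPM. None of these 5 lies on chromosome 2 or 4.

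Both partners of the anaphase-promoting complex among the members were at least 2-fold higher, against 8.35% of all genes. Ube2c lies on chromosome 2 and Cdc20 on chromosome 4, so this group drops out without these chromosomes. Ube2c, the E2 enzyme that starts ubiquitin chains, was 58.8 TPM in control and 248 TPM in knockout organoids, a ratio of 4.21 with an interval of 4.10 to 4.33. Cdc20, the activator that the checkpoint holds, was 51.0 and 172 TPM, a ratio of 3.37 with an interval of 3.24 to 3.50. For the chromosomes themselves, Mki67, which coats them and marks cycling cells, was 11.2 and 27.1 TPM, and Top2a, the topoisomerase that untangles sister DNA, 34.4 and 68.3 TPM. At a 4-fold threshold 4 members remained, Mybl2, Cdca8, Cdc25b and Ube2c, which is 9.76% against 2.38% of all genes.

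Annotated overlaps touch some of these values, because the strand setting of the counting is not given in the sources used here. In GENCODE M21 the exons of Cdc23 on the opposite strand cover 29.3% of the exon bases of Kif20a, and Cdc23 was 14.4 and 9.998 TPM. Exons of Tnnc2 cover 22.8% of Ube2c, with Tnnc2 at 0.0720 and 2.67 TPM, and those of Exosc9 cover 12.5% of Ccna2, with Exosc9 at 65.4 and 60.4 TPM. Nusap1 shares 4.24% of its exon bases with Oip5, which also lies on the list of other mitotic genes below.

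A wider list of 131 mitotic genes outside the members was less strongly shifted. It was chosen by role, and, like the members, with earlier results of these data known. Of 129 measured, 21 (16.3%) were at least 2-fold higher, against 8.35% of all genes, and 2 were lower, against 15.3%. Above 0 were 101 of them, where 39.9% of all genes were above 0, and their median was 0.48. Without chromosomes 2 and 4 the count was 10 of 107 (9.35%), against 6.56% of all genes there, and 2 were lower, against 16.4%. The functional groups lay at different heights. The medians were 0.82 for 17 other kinesins and spindle proteins, 0.76 for 9 other cytokinesis genes, 0.69 for condensin and 0.61 for the inner kinetochore. They were 0.24 for centriole duplication, 0.17 for cohesin and separase and 0.01 for the anaphase-promoting complex with its other partners, groups with 0 genes past 2-fold in either direction on the log2(TPM + 1) scale. That scale understates low genes: the separase gene Espl1, at 1.60 and 3.73 TPM, had a TPM ratio of 2.33 with an interval of 2.07 to 2.63, and Stil of the centriole group, at 0.763 and 1.75 TPM, had 2.29 with an interval of 1.87 to 2.80.

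**Figure D5:**
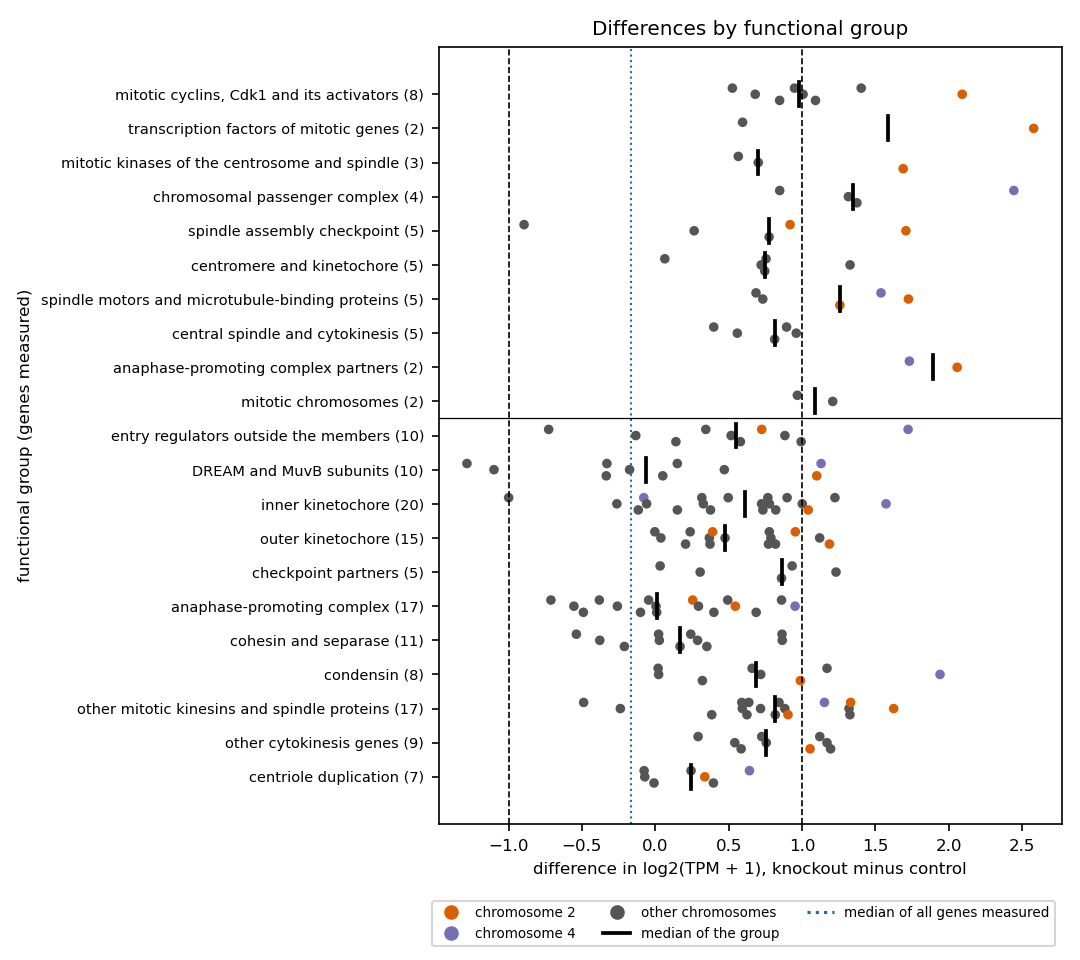
Difference in log2(TPM + 1), knockout minus control, of each mitotic gene by functional group, members above the horizontal line and other mitotic genes below it, coloured by chromosome; black bars are group medians, the dotted line is the median of all genes measured at −0.17 and the dashed lines are 2-fold differences. The anaphase-promoting complex and the DREAM and MuvB subunits centre near 0, and the members' groups centre between 0.70 and 1.89.

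Condensin, which compacts chromosomes, held the highest value of the wider list. Its ATPase subunit Smc2, on chromosome 4, was 9.26 TPM in control and 38.4 TPM in knockout organoids, while its partner ATPase Smc4 on chromosome 3 was 48.0 and 76.5 TPM. Ncapg, a regulatory subunit, was 8.61 and 20.6 TPM. Among entry regulators, the kinase gene Melk, on chromosome 4, was 8.22 and 29.4 TPM. It was the only 1 of 10 (10%) past 2-fold, near the 8.35% of all genes.

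At the inner kinetochore 4 of 20 genes (20%) were at least 2-fold higher, against 8.35% of all genes. Of these 4, Cenps lies on chromosome 4 and Oip5 on chromosome 2. Cenps was 5.82 TPM in control and 19.3 TPM in knockout organoids, Cenpl 3.31 and 7.64 TPM, and the CENP-A loading genes Mis18a and Oip5 26.0 and 9.25 TPM in control and 62.0 and 20.1 TPM in knockout organoids. Hjurp, the chaperone of CENP-A, chosen after its values were seen, was 48.3 and 40.1 TPM, below the control while Cenpa itself was above it. At the outer kinetochore 2 of 15 genes (13.3%) were past 2-fold, against 8.35% of all genes. They were the scaffold gene Knl1, on chromosome 2, at 1.32 and 4.28 TPM and Ska1 at 4.77 and 11.5 TPM. Ska1 belongs to the microtubule-tracking Ska complex. Trip13, the ATPase that remodels Mad2, was 5.44 and 14.1 TPM, higher while Mad2l1 was lower.

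Among the other kinesins and spindle proteins, 5 of 17 (29.4%) were at least 2-fold higher, against 8.35% of all genes. The largest were Ckap2l at 13.6 TPM in control and 44.1 TPM in knockout organoids and the chromosome-aligning motor Kif18a at 3.49 and 10.3 TPM, both on chromosome 2. Tacc3, a partner of Aurora A on the spindle, was 33.5 and 85.5 TPM, and the chromosome-arm motor Kif22 was 22.9 and 58.7 TPM. Of 9 other cytokinesis genes 4 (44.4%) were past 2-fold, against 8.35% of all genes. The median of the 9 was 0.76, close to the 0.81 of the 5 members. The 4 included the abscission scaffold Cep55 at 13.3 and 31.8 TPM and Depdc1b at 1.98 and 5.70 TPM. The others were Racgap1, the partner of Kif23 in centralspindlin, at 23.3 and 51.9 TPM, and Arhgap11a of chromosome 2 at 10.9 and 23.8 TPM.

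Subunits of DREAM and its MuvB core, the complexes that hold or drive these promoters, lay on both sides of the control. Of 10 measured, 2 were past 2-fold upward (8.35% of all genes were) and 2 downward (15.3% of all genes), with a median of −0.06. The counting intervals of both upward and both downward genes lay wholly beyond a 2-fold TPM ratio. Both upward genes lie on chromosomes 2 and 4. Neither downward gene stayed past 2-fold with a pseudocount of 5, quantile normalization or the chromosome median subtracted. At a mean TPM of at least 5 both downward genes dropped out of the genes measured, with their differences unchanged. Rbl1, p107, on chromosome 2, was 5.01 TPM in control and 11.9 TPM in knockout organoids, whereas its relative Rbl2, p130, the pocket protein of resting cells, was 6.70 and 2.59 TPM. Rbbp4, a histone-binding subunit on chromosome 4, was 60.6 and 134 TPM, and the E2F partner Tfdp2 was 2.34 and 0.371 TPM. Lin54 is not among the rows used, and Mybl1 fell short of the level needed to be measured.

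Markers of other cell types were read beside these counts. Of 8 measured multiciliated markers, all 8 were at least 2-fold lower, against 15.3% of all genes. Ccno, Mcidas, Deup1, Tekt1, Spag6l and Tppp3 were below 1 TPM in knockout organoids and passed the filter only through the control library. The sum over all 16 on the list was 223 TPM in control and 61.7 TPM in knockout organoids. Most of the knockout sum was Foxj1, at 116 and 52.7 TPM, and Rsph1 was 40.4 and 7.50 TPM. Listed at 0 in the knockout library are Deup1, Ccdc78, Dnah5, Dnah9, Dnai1, Ccdc39, Tekt1 and Tppp3. Of these, Dnah5, Dnah9, Dnai1 and Ccdc39 were already below 1 TPM in control. Cfap43 was 0.799 and 0.819 TPM. The 8 basal and squamous markers were all higher, against 8.35% of all genes, with a sum of 73.2 and 4837 TPM. Krt5, Krt14, Trp63, Krt6a, Krt17 and Dsg3 were below 1 TPM in control and passed the filter only through the knockout library. For both marker sets the filter thus favoured the direction of these calls. The 8 secretory markers summed to 6892 and 5812 TPM, most of it from Krt18, Krt8, Krt7 and Epcam. At least 2-fold lower were 3 of the 8, against 15.3% of all genes. They were Ovgp1 at 7.44 and 0.192 TPM, Sox17 at 86.5 and 22.5 TPM and Wt1 at 35.3 and 7.85 TPM. Pax8 was 44.8 and 46.0 TPM. The part that the balance of these epithelial types has in the mitotic genes was not tested. Fibroblast markers summed to 0.0974 TPM in the control library and are all listed at 0 in the knockout library, and endothelial markers summed to 0.181 and 0.0674 TPM. Of the immune markers, Cd3e and Tyrobp are listed at 0 in both libraries, while Cd68 was 25.5 and 15.97 TPM and Csf1r 8.78 and 0.420 TPM. Smooth muscle markers were near 0 apart from Acta2 at 1.07 and 17.8 TPM, and of the 3 measured mesothelial markers, Wt1 was 2-fold lower or more at 35.3 and 7.85 TPM, while Msln was 243 and 232 TPM and Upk3b 1.27 and 1.41 TPM.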

How the data were processed

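RNA was isolated from organoids with a column kit and sequenced as strand-preserving paired-end libraries, per the labels' protocols. The submitters' processing notes name the build GRCm39. The authors deposited TPM per gene symbol, 1 file per library. For the aligner, the counter, the annotation and the strand setting, nothing is given in the sources used here.

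Groups came from the genotype labels. A pseudocount of 1 was added before log2, and a gene was measured where its mean was at least 1 TPM. No test was possible with 1 library per group. Chromosomes came from the RefSeq table of GRCm38.p6, used for names only.

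TPM keeps no depth by itself, so reads were recovered from it. TPM times length is a whole multiple of 1 constant per library, 0.0168 TPM per read and kilobase for the control and 0.0565 for the knockout. For each member, a length was sought at which both libraries gave reads within 0.002 of a whole number, at or above its longest GENCODE M21 coding transcript. All 41 had one within 1.5 times that length, 14 at the GENCODE length itself. With 20 wrong constants the median was 1.5 members and the highest 5. These settings were chosen after the data were seen. Library totals use GENCODE lengths for all coding genes and are estimates.

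Members and lists were chosen with earlier results of these data known. Named genes are the 41 members, Trp53, Cdkn1a, markers read beside a result and, in each group of the wider list, up to 4 genes past 2-fold in each direction. Cdc25a, Smc4, Mad1l1, Hjurp, Espl1 and Stil, and the overlapping genes Cdc23, Tnnc2 and Exosc9, fall outside this rule and were named after their values were seen. Python 3.11.15, numpy 2.4.6, pandas 2.3.3 and scipy 1.17.1 were used. The calling step was tested on simulated counts, which hold counting noise only.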

Additional observations from a re-analysis of the deposited data

How the results depend on the processing

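No paired analysis was possible because each group has 1 library, and no library could be left out. Of the 41 members, 40 were above 0 and 0 at least 2-fold lower under each alternative that kept all chromosomes. The members' median was 0.96 with a pseudocount of 0.1, 0.82 with 5, 1.09 after rescaling by the median ratio, 1.05 after quantile normalization, 0.97 without mitochondrially encoded genes and the 100 highest genes, 0.76 without chromosomes 2 and 4, and 1.08 after subtracting the chromosome median. Over all genes, the median of −0.17 moved to −0.01 with rescaling and 0.03 with quantile normalization, and the members' median stayed 1.10 and 1.02 above it. Their count of 17 at least 2-fold higher became 15 with a pseudocount of 5 (5.01% of all genes), without Ccna2 and Mki67, 24 with rescaling (10.6%), 25 with quantile normalization (11.5%), 24 after subtracting the chromosome median (8.96%), 7 without chromosomes 2 and 4 (6.56%) and 4 at a 4-fold threshold (2.38%), against 8.35% as reported. For the other mitotic genes, the same medians were 0.55, 0.32, 0.64, 0.74, 0.51, 0.37 and 0.62, and 0.52 at a mean TPM of at least 5. Their 21 higher genes of 129 measured stood beside 8.35% of all genes. The count became 29 with a pseudocount of 0.1 (9.62% of all genes) and 11 with 5 (5.01%). At a mean TPM of at least 5 it was 19 of 105 measured (8.34%). With rescaling it was 35 (10.6%) and with quantile normalization 41 (11.5%). Without the highest genes it was 27 of 130 measured (9.26%), and after subtracting the chromosome median 31 (8.96%). Without both chromosomes it was 10 of 107 (6.56%), and at 4-fold 0 (2.38%). The 2 lower genes of the wider list, against 15.3% of all genes, became 3 with a pseudocount of 0.1 and 1 with rescaling. They became 0 with a pseudocount of 5, a mean TPM of at least 5, quantile normalization, a 4-fold threshold or the chromosome median subtracted. Fewer genes enter without the chromosomes and at a mean TPM of at least 5, while the difference of each gene stays as it was. For the other changes the cause was not tested. No sign changed for any member under any alternative.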
